A study of Mus musculus with 8 samples.

Results

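Retinoic acid is made, sensed and removed by a small set of genes, and 10 of these were followed in mouse eyecups that lack the ciliary gene Bbs8: Aldh1a1, Aldh1a2, Aldh1a3, Dhrs3, Cyp26b1, Crabp1, Crabp2, Rara, Rarb and Rarg. They were taken by name from the 31053 gene rows of each library, all 10 were found, and all 10 passed the filter on low counts. Gene expression was measured by QuantSeq, which sequences the 3′ end of polyadenylated transcripts, in eyecups at postnatal day 11 (P11) in 4 libraries labelled as wild-type littermates (Bbs8+/+) and 4 labelled as Bbs8 knockout (Bbs8-/-), strain C57/Bl6. An eyecup is what remains of the eye after cornea, lens, retina and optic nerve are taken off, and it holds the retinal pigment epithelium (RPE), the choroid and the sclera. The knockout was present in every tissue and not limited to the RPE. The comparison addresses whether loss of Bbs8 alters expression of these genes.

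Retinoic acid forms in a pair of oxidation steps. Retinol is first turned into retinaldehyde by retinol dehydrogenases such as Rdh10, a step that Dhrs3 runs backwards, and retinaldehyde is then irreversibly turned into retinoic acid by the retinaldehyde dehydrogenases Aldh1a1, Aldh1a2 and Aldh1a3. The Cyp26 enzymes oxidise retinoic acid for removal. The Crabp proteins bind it in the cytoplasm, and in the nucleus it activates the receptors Rara, Rarb and Rarg, which bind DNA as partners of retinoid X receptors (Rxr). In the eye this signal patterns the optic cup before birth, and retinoic acid from the choroid has been linked to growth of the sclera.

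The sequence through which the receptors act can be seen in the gene for Rarb itself, which is shown because Rarb and Cyp26a1 are classical read-outs of retinoic acid. Retinoic acid receptors bind paired copies of a 6-base half-site, here AGGTCA with its variants AGTTCA and also GGGTCA and also GGTTCA, that point the same way. Promoter windows from RefSeq on GRCm38.p6, each covering 250 bases before to 50 bases after a transcript start, were found for 8 of the 10 genes in 15 windows, and both strands were searched. A pair of half-sites 5 bases apart (a direct repeat called DR5) occurred in 32 of 32851 windows of all genes (0.0974%). Among the 10 genes the Rarb window held one, and the window of Cyp26a1, a retinoic acid-degrading enzyme outside the 10, held another. Pairs 1 base apart (DR1, in 0.222% of all windows) and 2 bases apart (DR2, 0.268%) were in no window of the 10 genes. The windows of the following genes have the half-sites of the DR5 repeat in capitals, read 5′ to 3′ along the gene. Half-sites outside the repeat, such as a GGGTCA in the Rarb window, are left in lower case. Rarb lies at chr14:16575427-16575726 on the minus strand and Cyp26a1 at chr19:37697558-37697857 on the plus strand.
Rarb: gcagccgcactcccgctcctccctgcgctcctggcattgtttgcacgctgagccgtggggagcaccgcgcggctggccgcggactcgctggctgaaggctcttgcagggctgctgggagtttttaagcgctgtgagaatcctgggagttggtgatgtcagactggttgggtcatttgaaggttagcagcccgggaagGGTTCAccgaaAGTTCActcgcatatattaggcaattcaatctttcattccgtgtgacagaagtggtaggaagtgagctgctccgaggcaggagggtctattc
Cyp26a1: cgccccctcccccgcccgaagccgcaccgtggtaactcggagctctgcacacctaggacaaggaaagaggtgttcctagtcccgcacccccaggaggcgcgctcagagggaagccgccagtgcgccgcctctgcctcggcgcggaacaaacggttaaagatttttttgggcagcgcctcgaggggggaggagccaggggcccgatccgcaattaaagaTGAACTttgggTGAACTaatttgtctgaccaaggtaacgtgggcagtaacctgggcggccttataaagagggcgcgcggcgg
In Rarb the repeat reads along the gene and ends 36 bases before the start. In Cyp26a1 it lies on the opposite strand, where both half-sites read AGTTCA, and ends 15 bases before the start. A match in letters is a description of the window and does not show that a receptor binds there.

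Total gene counts were 1636725 to 2884983 per library, so that 3 counts, the smallest level taken as shown, equal 1.04 to 1.83 CPM, the count scaled to a common library total of 1e+06. By genotype the totals were 2159295 to 2884983 in Bbs8+/+ and 1636725 to 2179761 in Bbs8-/-. The level of 3 counts was thus 1.04 to 1.39 CPM in Bbs8+/+ and 1.38 to 1.83 CPM in Bbs8-/-. Values below are CPM scaled with TMM factors, with the mean ± SD over the n = 4 libraries of each genotype, and differences are log2 fold changes of Bbs8-/- over Bbs8+/+ from the edgeR quasi-likelihood test with its false discovery rate (FDR) over all 13813 genes tested. Because each transcript gives reads near its 3′ end, CPM does not grow with transcript length, and levels of different genes were compared without division by length. Reads outside annotated genes were 42.15% to 43.41% of uniquely aligned reads in Bbs8+/+ and 44.14% to 44.39% in Bbs8-/-. Levels count only reads inside annotated genes, which limits comparisons between genes. The targeted gene, listed under the symbol Ttc8, had 14.7 to 21.7 CPM in Bbs8+/+ and 2.3 to 9.72 CPM in Bbs8-/-. RPE markers summed to 18147 to 19245 CPM in Bbs8+/+ and 19485 to 19873 CPM in Bbs8-/-, Ttr included, and of the 12 only Best1, at 0 to 4.59 CPM, was under 3 counts in any library, reaching that level in 3 of 8. Lens markers summed to 205.2 to 241.3 CPM in Bbs8+/+ and 451.3 to 480.1 CPM in Bbs8-/-, where 4 of 10, the crystallin genes Cryaa, Cryba1, Crygb and Crygc, were higher and the most abundant, Cryab, had a log2 fold change of -0.15 (edgeR FDR 0.484), and surface epithelium markers to 11.8 to 18.7 CPM and 0 to 0.607 CPM, with Krt14 at 0 in all 8. Xist, made from the inactive X of females, and the Y-linked Ddx3y, Uty, Kdm5d and Eif2s3y were all detected in each of the 8 libraries. A single mouse does not give both, while the study describes each animal as a replicate, so the libraries may hold pooled or mixed material and the number of mice behind each is not established. The p-values measure the spread between libraries, which may be technical in part.

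None of the 10 genes differed between the genotypes at FDR 0.05 (0 higher and 0 lower by edgeR, and 0 by the DESeq2 Wald test). Across all genes tested, 2.24% were past this threshold, 1.1% higher and 1.14% lower, and DESeq2 called 1.99%. At an unadjusted p under 0.05 the count was also 0 of 10, where 13% of all genes were. In each of the 10 genes the Bbs8-/- libraries overlapped with the Bbs8+/+ libraries, and 7.38% of all genes showed no overlap. The log2 fold changes ran from -0.34 (Crabp2) to 0.15 (Aldh1a1), with 7 negative and 3 positive and a median of -0.10, beside a median of -0.0041 for all genes tested. These results concern what the depth could resolve, and the intervals given for each gene below mark which changes remain possible.

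**Figure D1:**
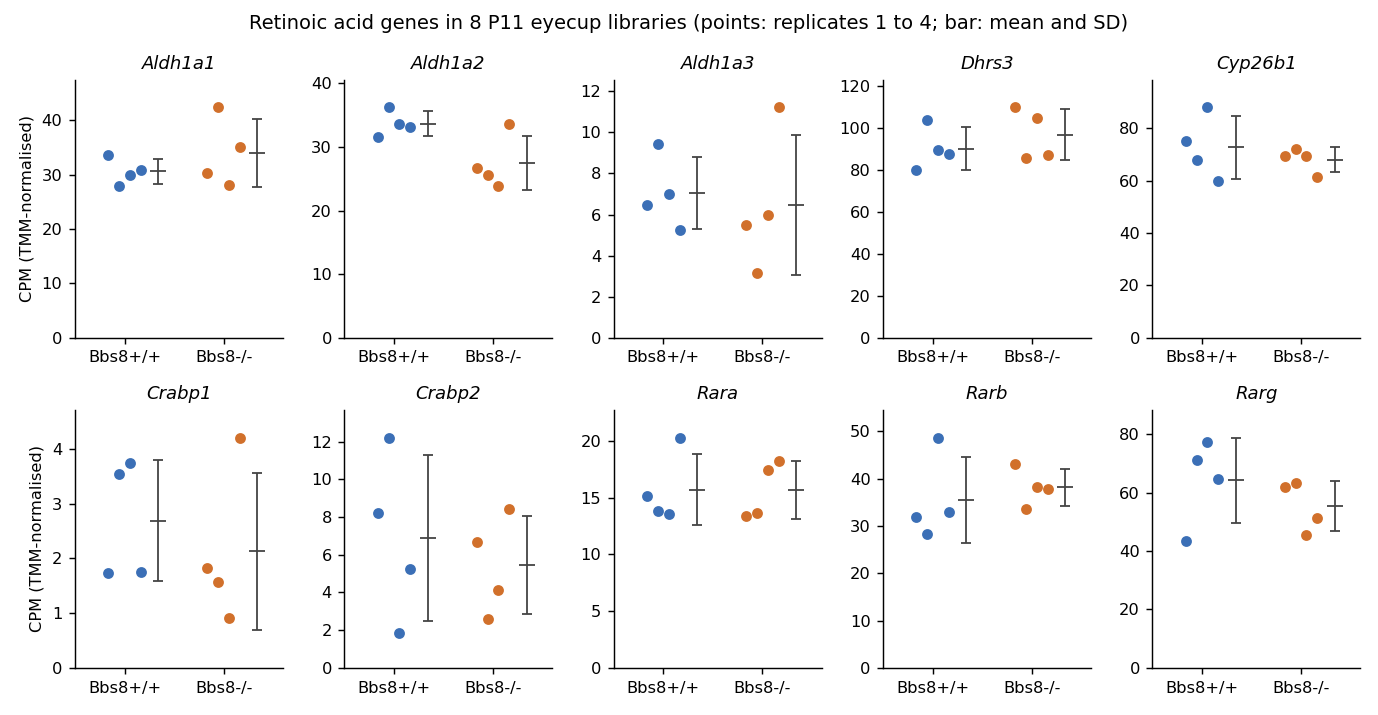
Level of each of the 10 retinoic acid genes in CPM (vertical axis, starting at 0) in the 4 Bbs8+/+ libraries (blue) and the 4 Bbs8-/- libraries (orange), with the mean and SD beside each group in grey. The points of the genotypes overlap in every panel. For Aldh1a2, 3 of 4 Bbs8-/- libraries lie under all Bbs8+/+ libraries. Likewise 3 of 4 Bbs8+/+ libraries lie under all Bbs8-/- libraries for Rarb and above all of them for Rarg.

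By mean level over the 8 libraries the genes ranked Dhrs3 (93.5 CPM), Cyp26b1 (70.3), Rarg (59.9), Rarb (36.8), Aldh1a1 (32.3), Aldh1a2 (30.6), Rara (15.7), Aldh1a3 (6.75), Crabp2 (6.17) and Crabp1 (2.41). Dhrs3 stood above 87.3% of the tested genes and Crabp1 above 10.3%. In this order the range of each gene over the libraries overlapped with that of the next one, except between Aldh1a2 and Rara and between Rara and Aldh1a3, where a gap separated them in all 8 libraries. Aldh1a1 was above Aldh1a2 in 5 of 8 libraries and Aldh1a3 above Crabp2 in 4 of 8, so these neighbours had no set order. Dhrs3 and Cyp26b1, enzymes that limit retinoic acid, had the highest means of the 10, and the cytoplasmic binding proteins the lowest.

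The retinaldehyde dehydrogenases carry out the final step of synthesis. Aldh1a1 (ENSMUSG00000053279, chromosome 19, 20492715 to 20643465 in mm10) was at 33.7, 28.0, 29.9 and 30.8 CPM in Bbs8+/+ replicates 1 to 4 and at 30.4, 42.4, 28.0 and 35.1 CPM in Bbs8-/- replicates 1 to 4. The highest level was that of Bbs8-/- replicate 2, and the other 3 Bbs8-/- libraries lay within or just above the Bbs8+/+ range. The means were 30.6 ± 2.37 and 33.96 ± 6.32 CPM, a log2 fold change of 0.15 with a 95% interval from -0.20 to 0.50 (edgeR FDR 0.802). It was 0.031 without Bbs8-/- replicate 2 and 0.24 without Bbs8-/- replicate 3. Its close copy Aldh1a7, the gene with which it could most easily share reads, had 0 counts in all libraries.

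Aldh1a2 (ENSMUSG00000013584, chromosome 9, 71215789 to 71296243) was at 31.5, 36.2, 33.7 and 33.2 CPM in Bbs8+/+ and at 26.7, 25.6, 23.9 and 33.7 CPM in Bbs8-/-. In Bbs8-/- 3 libraries lay under every Bbs8+/+ library, and replicate 4 lay among them. The means were 33.7 ± 1.95 and 27.5 ± 4.29 CPM, and the log2 fold change of -0.29 had an interval from -0.64 to 0.064 (edgeR FDR 0.522). This was the lowest FDR of the 10 genes. Leaving out each library gave -0.41 (without Bbs8-/- replicate 4) to -0.22 (without Bbs8-/- replicate 3), none past the threshold. The spread between libraries of one genotype was no larger than counting noise for this gene, with a chi-square index of 0.853, where 1 is the value for counting noise alone.

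Aldh1a3 (ENSMUSG00000015134, chromosome 7, 66390890 to 66427517) was far less abundant. It was at 6.47, 9.45, 7.02 and 5.25 CPM in Bbs8+/+ and at 5.47, 3.14, 5.97 and 11.2 CPM in Bbs8-/-, from 6 to 24 counts per library. Both the lowest and the highest level belonged to Bbs8-/-. The log2 fold change of -0.10 had an interval from -0.87 to 0.66 (edgeR FDR 0.952), and it was 0.12 without Bbs8-/- replicate 2, 0.077 without Bbs8+/+ replicate 2 and -0.52 without Bbs8-/- replicate 4.

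Within this family the counts divided almost evenly between Aldh1a1 and Aldh1a2. Aldh1a1 took 43.0% ± 3.82 of the counts of the 3 genes in Bbs8+/+ and 50.1% ± 6.675 in Bbs8-/-, Aldh1a2 took 47.2% ± 2.25 and 40.5% ± 3.06, and Aldh1a3 took 9.85% ± 2.22 and 9.38% ± 3.985 (SD over 4 libraries). The Aldh1a2 share was 44.0% to 49.2% in Bbs8+/+ and 36.0% to 42.7% in Bbs8-/-, so that it did not overlap between the genotypes, whereas the Aldh1a1 share did. The level of Aldh1a2 itself did overlap, and 7.38% of all genes tested showed no overlap in level. The ratio of Aldh1a1 to Aldh1a2 counts was 1.07, 0.772, 0.889 and 0.926 in Bbs8+/+ and 1.14, 1.65, 1.17 and 1.04 in Bbs8-/-, which overlapped in Bbs8+/+ replicate 1 and Bbs8-/- replicate 4. These shares were chosen after the levels had been seen and were not tested. Summed over the 3 genes, the level came to 71.3 ± 1.855 CPM for Bbs8+/+ and 67.9 ± 9.75 CPM for Bbs8-/-.

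**Figure D2:**
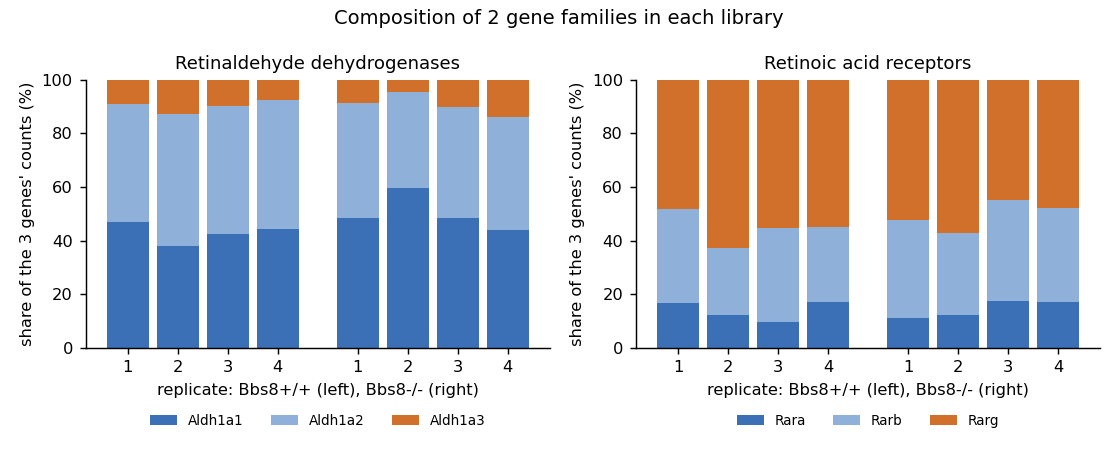
Share in percent (vertical axis, 0 to 100) of the counts of 3 retinaldehyde dehydrogenases (left panel) and of 3 retinoic acid receptors (right panel) in each of the 8 libraries, replicates 1 to 4 of Bbs8+/+ and then of Bbs8-/-. The Aldh1a2 segment spans 44.0% to 49.2% in Bbs8+/+ and 36.0% to 42.7% in Bbs8-/-, and Rarg is the largest receptor segment in all 8 libraries. The shares were chosen after the levels had been seen and were not tested.

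Dhrs3 reduces retinaldehyde back to retinol and so holds back synthesis, and it is itself known to be induced by retinoic acid. Dhrs3 (ENSMUSG00000066026, chromosome 4, 144892827 to 144928209) was at 79.8, 104, 89.4 and 87.8 CPM in Bbs8+/+ and at 109.9, 85.8, 104.7 and 87.0 CPM in Bbs8-/-. High and low libraries occurred in each genotype. As the most deeply counted of the 10 genes, with 164 to 264 counts per library, it had the narrowest interval, a log2 fold change of 0.10 from -0.12 to 0.31 (edgeR FDR 0.788). It was 0.041 without Bbs8-/- replicate 1 and 0.18 without Bbs8+/+ replicate 2. On the linear scale the interval runs from 0.922-fold to 1.24-fold. The ratio of Dhrs3 to Rdh10 counts, the reducing and the oxidising enzyme of the same step, came to 0.138 ± 0.0138 in the Bbs8+/+ libraries against 0.134 ± 0.0149 in Bbs8-/- (SD over 4 libraries), and the genotypes overlapped.

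For breakdown, Cyp26b1 (ENSMUSG00000063415, chromosome 6, 84571414 to 84593908) is the Cyp26 enzyme among the 10. Its levels were 75.1, 67.7, 88.0 and 59.8 CPM in Bbs8+/+ and 69.2, 72.2, 69.4 and 61.3 CPM in Bbs8-/-. All 4 Bbs8-/- libraries lay inside the Bbs8+/+ range. The log2 fold change was -0.09 with an interval from -0.33 to 0.16 (edgeR FDR 0.841), and it was 0.014 without Bbs8+/+ replicate 3 and -0.17 without Bbs8+/+ replicate 4. Cyp26a1, whose promoter window is printed above, was at 25.7 ± 5.01 CPM and 25.3 ± 3.59 CPM, a log2 fold change of -0.02 (FDR 0.979). Cyp26b1 took 70.5% to 77.05% of the counts of these enzymes in each library. Cyp26c1 had 0 counts in all libraries, which allows up to 1.04 to 1.83 CPM.

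The cytoplasmic binding proteins had the lowest means of the 10 genes, and Crabp1 was near the limit of detection. Crabp2 had 4 to 31 counts per library. Crabp2 (ENSMUSG00000004885, chromosome 3, 87948666 to 87953376) was at 8.20, 12.2, 1.87 and 5.25 CPM in Bbs8+/+ and at 6.68, 2.62, 4.13 and 8.42 CPM in Bbs8-/-, and Bbs8+/+ held both its highest and its lowest library. Crabp1 (ENSMUSG00000032291, chromosome 9, 54764748 to 54773110) had 2 to 9 counts per library, or 0.919 to 4.21 CPM. Log2 fold changes were -0.34 for Crabp2, with an interval from -1.17 to 0.48, and -0.30 for Crabp1, from -1.62 to 1.01 (edgeR FDR 0.812 and 0.909). Leaving out each library gave -0.65 (without Bbs8-/- replicate 4) to 0.086 (without Bbs8+/+ replicate 2) for Crabp2 and -0.89 (without Bbs8-/- replicate 4) to -0.041 (without Bbs8-/- replicate 3) for Crabp1. In Crabp1 the interval spans a fall to 0.325-fold and a rise to 2.02-fold, so a change of that size was not detectable at this depth. The spread of Crabp2 exceeded counting noise, with a chi-square index of 4.56. In Bbs8-/- replicate 4, Crabp1, Crabp2 and Aldh1a3 each had their highest Bbs8-/- level, and in Bbs8+/+ replicate 2, Crabp2 and Aldh1a3 had their highest Bbs8+/+ level.

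Of the receptors, Rarg (ENSMUSG00000001288, chromosome 15, 102234938 to 102257517) was the most abundant. Its levels were 43.6, 71.3, 77.2 and 64.7 CPM in Bbs8+/+ and 62.0, 63.3, 45.5 and 51.5 CPM in Bbs8-/-. Bbs8+/+ replicate 1 was the lowest of all 8, while the other 3 Bbs8+/+ libraries were the highest. The means were 64.2 ± 14.65 and 55.5 ± 8.55 CPM, a log2 fold change of -0.22 with an interval from -0.49 to 0.055 (edgeR FDR 0.537). It was -0.36 without Bbs8+/+ replicate 1 (edgeR FDR 0.219), -0.12 without Bbs8+/+ replicate 3 (FDR 0.801) and -0.13 without Bbs8-/- replicate 3 (FDR 0.816). Rarg had the largest spread beyond counting noise of the 10 genes, with a chi-square index of 5.14.

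Rarb (ENSMUSG00000017491, chromosome 14, 16430839 to 16819156), the receptor gene with the DR5 repeat in its promoter window, was at 31.9, 28.4, 48.6 and 32.9 CPM in Bbs8+/+ and at 43.1, 33.5, 38.1 and 37.9 CPM in Bbs8-/-. Bbs8+/+ replicate 3 was the highest library, and the remaining Bbs8+/+ libraries lay under all 4 of Bbs8-/-. The means were 35.5 ± 9.01 and 38.2 ± 3.95 CPM. The log2 fold change was 0.11 with an interval from -0.22 to 0.44 (edgeR FDR 0.852), it was 0.29 without Bbs8+/+ replicate 3 and 0.023 without Bbs8+/+ replicate 2, and it turned to -0.020 after all libraries were thinned to the same total. At its 3′ end Rarb overlaps Top2b, a DNA topoisomerase gene on the opposite strand, over 4624 bases (chromosome 14, 16430839 to 16435462). Whether reads were counted by strand is not given in the sources used here, so the reads of this gene pair are uncertain. Top2b was at 179 and 181 CPM, a log2 fold change of 0.02 (FDR 0.952).

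Rara (ENSMUSG00000037992, chromosome 11, 98927818 to 98974942) was the least abundant receptor. Its levels of 15.1, 13.8, 13.6 and 20.3 CPM in Bbs8+/+ and 13.4, 13.6, 17.4 and 18.2 CPM in Bbs8-/- gave equal means of 15.7 ± 3.14 and 15.7 ± 2.54 CPM, and the genotypes covered nearly the same range. The interval of its log2 fold change ran from -0.49 to 0.48 (edgeR FDR 0.999). Of the counts of the 3 receptors, Rarg took 55.3% ± 6.03 in Bbs8+/+ and 50.6% ± 5.40 in Bbs8-/-, Rarb 30.8% ± 5.12 and 34.9% ± 3.23, and Rara 13.9% ± 3.61 and 14.5% ± 3.10. Their order was the same in all 8 libraries.

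**Figure D3:**
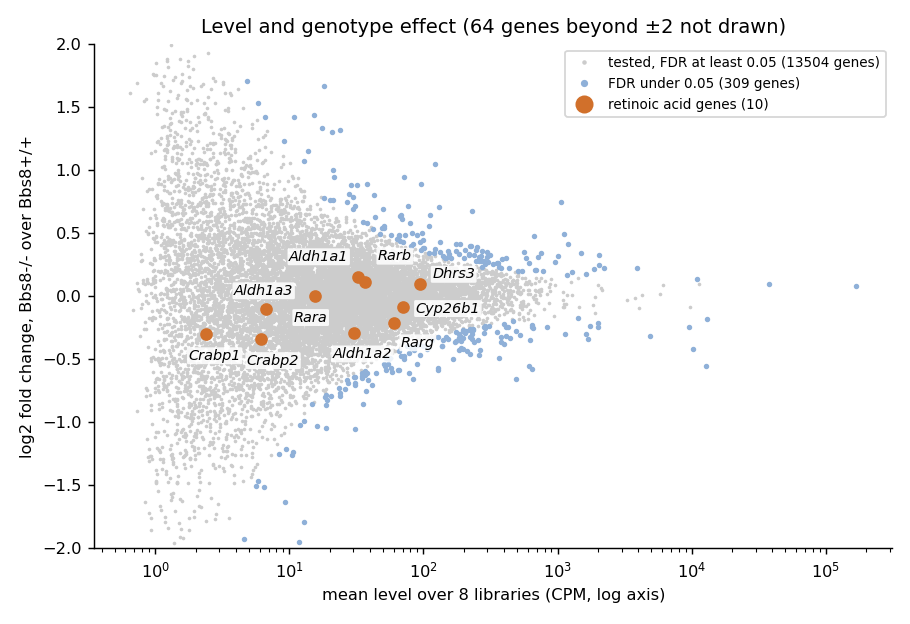
Mean level over the 8 libraries in CPM (horizontal log axis) against the log2 fold change of Bbs8-/- over Bbs8+/+ for the genes tested, with the 10 retinoic acid genes in orange, genes past FDR 0.05 in light blue and the others in grey; 64 genes beyond 2 in either direction are not drawn. The 10 genes lie between -0.34 and 0.15 among the grey points, and at the level of Crabp1, Crabp2 and Aldh1a3 few light blue points lie near 0.

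The wider retinoid pathway was examined with 47 other genes in 5 parts, of which 46 were in the files and 36 passed the filter on low counts. By edgeR, 0 were higher and 1 was lower in Bbs8-/- at FDR 0.05, where 2.24% of all genes were past it in either direction. An unadjusted p under 0.05 was found for 6 of 36, beside 13% of all genes, and 4 of 36 showed no overlap between the genotypes, beside 7.38%, so these counts lie near the background. The median log2 fold change of the 36 was -0.02. The gene past the threshold was Nr2f2, and the DESeq2 Wald test also called Stra6.

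Nr2f2 encodes COUP-TFII, an orphan nuclear receptor that competes with retinoic acid receptors for DNA and partners and is known from veins and mesenchyme. It fell in Bbs8-/-. Levels were 454.8, 450.1, 385.9 and 410.8 CPM in Bbs8+/+ and 329.2, 317.4, 312.3 and 363.4 CPM in Bbs8-/-. Every Bbs8-/- library lay under every Bbs8+/+ library. The log2 fold change was -0.36 with an interval from -0.49 to -0.23 (edgeR FDR 3.14e-05), and it stayed between -0.41 and -0.33 with FDR of at most 0.00136 in 16 alternative settings. In bulk tissue, fewer cells of a type and less RNA per cell cannot be told apart. Of the markers of fibroblasts and sclera, the collagen genes Col1a1 (log2 fold change -0.42), Col1a2 (-0.55) and Col3a1 (-0.21) were lower, 3 of 8, and 0 were higher at FDR 0.05. The summed level of the 8 was 34487 to 36237 CPM in Bbs8+/+ and 27108 to 28246 CPM in Bbs8-/-, and no marker was at 0. Dcn had a change of 0.09 without overlap between the genotypes and Lum one of 0.12, neither past the threshold. Among endothelial markers 1 of 8 was higher and 0 lower, with sums of 719.5 to 789.7 CPM and 764.8 to 826.8 CPM, and among pericyte and smooth muscle markers 1 of 6 was lower, with sums of 1255 to 1289 CPM and 1104 to 1183 CPM. Melanocyte markers, 5 of 7 lower and 0 higher, summed to 13730 to 14420 CPM in Bbs8+/+ and 11322 to 11935 CPM in Bbs8-/-. Most of that sum was Dct. The lower genes were the pigment genes Dct, Pmel, Tyrp1 and Mlana, which RPE can also express, and Ednrb, an endothelin receptor of neural crest-derived melanocytes (244.4 and 180.7 CPM, log2 fold change -0.43, edgeR FDR 1.97e-05), while Sox10 (log2 fold change -0.05, edgeR FDR 0.878) and Kit (-0.03, FDR 0.974) were not past the threshold. Schwann cell markers, 2 of 5 tested lower, summed to 476.9 to 537.1 CPM and 378.4 to 459.3 CPM, and photoreceptor markers, 2 of 8 lower, to 461.3 to 526.3 CPM and 364.8 to 410.0 CPM. Other lists had higher sums in Bbs8-/- without overlap: macrophage markers, 1 of 6 higher (Csf1r), at 322.8 to 353.2 CPM and 385.9 to 438.2 CPM, and inner retina markers, 1 of 7 tested higher, at 215 to 239 CPM and 253 to 289.1 CPM. Muller glia markers, 1 of 6 higher (Gfap, log2 fold change 2.42), summed to 1665 to 1721 CPM and 1724 to 1753 CPM, but without Rlbp1, which the RPE list also holds, to 896.8 to 947.9 CPM and 869 to 907.6 CPM, which overlap. Skeletal muscle markers, 0 of 8 past the threshold, summed to 1469 to 1568 CPM and 1440 to 1604 CPM. The part of these cell types in the result was not tested. Its relative Nr2f1 (COUP-TFI), named after its values were seen, was at 60.6 to 68.8 CPM in Bbs8+/+ and 46.3 to 56.5 CPM in Bbs8-/- without overlap, a log2 fold change of -0.31 that was not past the threshold (edgeR FDR 0.268).

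**Figure D4:**
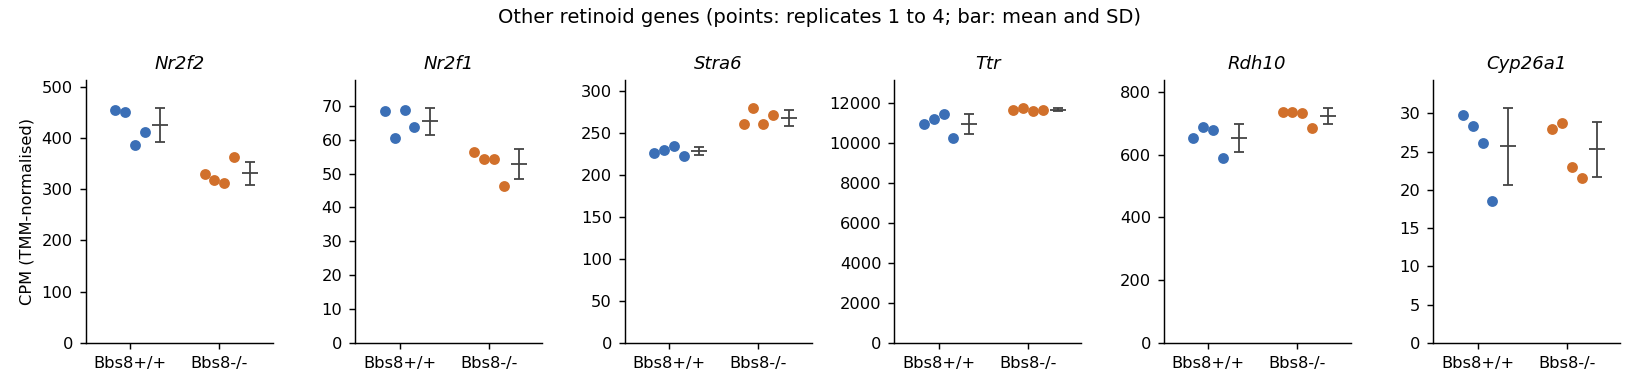
Level in CPM (vertical axis, starting at 0) of Nr2f2, Nr2f1, Stra6, Ttr, Rdh10 and Cyp26a1 in the 4 Bbs8+/+ libraries (blue) and the 4 Bbs8-/- libraries (orange), with the mean and SD in grey. Nr2f2 and Nr2f1 are lower and Stra6 and Ttr are higher in all 4 Bbs8-/- libraries, while Rdh10 and Cyp26a1 overlap; of the 6, Nr2f2 is past FDR 0.05.

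Among genes of retinol transport and storage, 0 of 7 tested were past the threshold. Ttr, which encodes the transport protein transthyretin, had the highest level of this part. It was at 10936, 11203, 11435 and 10248 CPM in Bbs8+/+ and at 11676, 11756, 11606 and 11665 CPM in Bbs8-/-. The genotypes did not overlap, but the log2 fold change was small at 0.09 (interval 0.035 to 0.15, edgeR FDR 0.0689). Stra6, the cell-surface receptor that takes up retinol and a known target of retinoic acid, was named after its values were seen. It was at 226.6, 230.4, 234.8 and 223.1 CPM in Bbs8+/+ and at 260.6, 280.3, 261.4 and 271.3 CPM in Bbs8-/-, with no overlap. Its log2 fold change of 0.23 (interval 0.089 to 0.37) had an edgeR FDR of 0.0635 and a DESeq2 FDR of 0.0449. Ttr is itself the most abundant RPE marker of the list used here. The 11 RPE markers other than Ttr summed to 7686 to 7909 CPM in Bbs8+/+ and 7820 to 8117 CPM in Bbs8-/-, which overlap, with Otx2 higher (log2 fold change 0.48) and Mitf lower (-0.36) at FDR 0.05. The part of RPE content in the values of Ttr and Stra6 was not tested. The largest change in this part was the -1.56 of Rbp7, a cellular retinol-binding protein with at most 3.28 CPM (FDR 0.482).

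In the group that oxidises and reduces retinol and retinaldehyde, 0 of 11 tested genes were past the threshold, with a median log2 fold change of 0.13. Rdh5, an RPE dehydrogenase of the visual cycle, had the highest level with 934 ± 11.4 and 991 ± 53.2 CPM and a log2 fold change of 0.09 (edgeR FDR 0.48). Rdh10, which makes the retinaldehyde that Aldh1a enzymes use, was at 653 ± 44.8 CPM in Bbs8+/+ and 723 ± 26.1 CPM in Bbs8-/-. Its change of 0.15 (interval 0.038 to 0.26) had an FDR of 0.175, and Bbs8-/- replicate 4 overlapped with Bbs8+/+. Bco1, which cleaves beta-carotene, had the largest change, -0.57, at 0.919 to 5.51 CPM (FDR 0.782).

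The receptors and cofactors other than Nr2f2 gave 0 calls among 12 tested genes. Ncor1, a corepressor of unliganded receptors, was the most abundant at 453 ± 12.55 and 453 ± 22.7 CPM, with a log2 fold change of -0.0016 (edgeR FDR 0.995). Rxra, the main partner of retinoic acid receptors in many tissues, was named after its values were seen, and was at 39.4 ± 8.99 and 31.3 ± 4.14 CPM with a change of -0.32 (FDR 0.418). Stra6 is also counted among the known target genes of retinoic acid. Of 8 targets tested, 0 were past the threshold by edgeR, and 1, Stra6, was called by DESeq2. An unadjusted edgeR p under 0.05 was found for 2 of 8, beside 13% of all genes. No overlap between the genotypes was seen for 1 of 8, beside 7.38%. The median log2 fold change of the 8 was 0.05. Meis1, a homeobox gene, had the largest change, 0.32 (FDR 0.546). Stra8, a target known from germ cells, had 0 counts in all libraries.

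**Figure D5:**
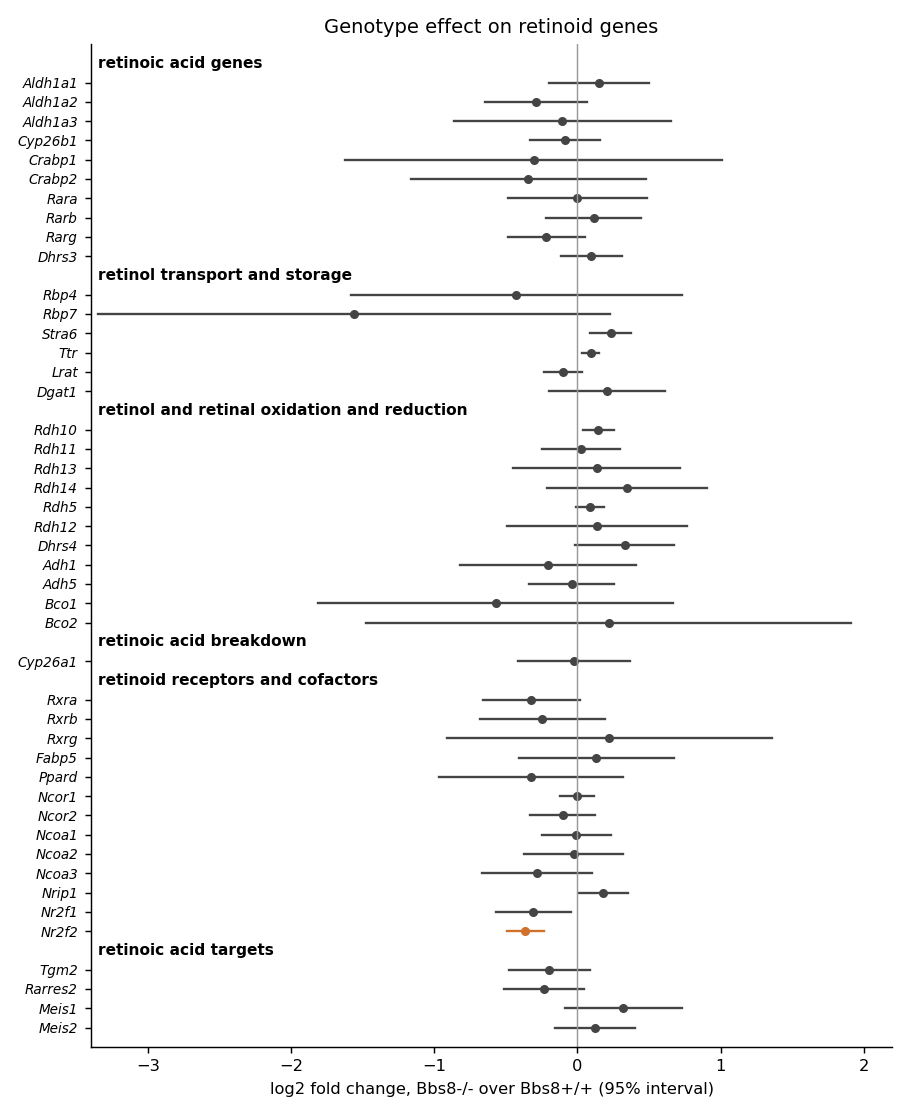
Log2 fold change of Bbs8-/- over Bbs8+/+ (horizontal axis) with its 95% interval for the 10 retinoic acid genes and the reported genes of the wider retinoid list that were tested, grouped by part. Nr2f2 (orange) is past FDR 0.05 at -0.36, and the intervals widen toward genes with few counts such as Crabp1, Rbp7 and Bco2.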

How the data were processed

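Eyecups at P11 were profiled by 3′ mRNA sequencing in 4 libraries labelled Bbs8+/+ and 4 labelled Bbs8-/-. The authors aligned reads to mm10 with STAR and deposited unique read counts per gene from htseq-count, 1 table per library; the strand setting is not given in the sources used here. Of 31053 gene IDs per table, 31011 matched GENCODE M21, which gave symbols and positions, and promoter windows were from RefSeq (GRCm38.p6). From the counts, the 13813 genes that reached 1 CPM in 4 or more libraries were kept, TMM factors were computed, and genotypes were compared in edgeR 4.0.16 (R 4.3.3) by its quasi-likelihood test, with Benjamini-Hochberg adjustment over all genes kept and a threshold of 0.05. The standard error was the log2 fold change divided by the square root of F. The scripts were tested on simulated data. Alternatives were the DESeq2 1.42.0 Wald test, other scaling factors and filters, a replicate block, leaving out each library, thinning, and leaving out Gm42418, crystallin and mitochondrial genes; the last pair was chosen after seeing the data. The members and gene lists were chosen with earlier results of these data known. Named were all 10 genes, wider-list genes past the threshold, the gene of highest level and of largest change in each of 5 parts of the wider list, Ttc8, and for each of the 10 genes with a mean of at least 10 CPM the 2 genes of most similar pattern. Some items that this rule or the lists name are not reported here. Depth was 1636725 to 2884983 counts per library, and floors of 3 counts cover counting error only, since reads carry no molecular identifiers here. Marker lists of 13 cell types were summed as CPM.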

Additional observations from a re-analysis of the deposited data

Results flagged for a closer look

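Among the genes named, 1 of 40 groups of 4 libraries held a library far from the others, where chance gives about 2. Meis1, a homeobox target of retinoic acid, was at 34.62 CPM in Bbs8-/- replicate 1 and at 24.06 to 25.26 CPM in the other 3 Bbs8-/- libraries, a gap of 0.886 of the range of the group. Bbs8+/+ replicate 1 was also the highest of its genotype for Meis1, at 32.4 CPM against 13.8 to 21.7 CPM in the others.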

How the results depend on the processing

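Across 16 alternative settings none of the 10 genes was past FDR 0.05 in either direction (Crabp1 had 15, since filterByExpr removed it), and Aldh1a1, Aldh1a2, Crabp1, Rarg and Dhrs3 kept the sign of their change in each, with ranges over the libraries left out of 0.031 to 0.239, -0.41 to -0.22, -0.89 to -0.041, -0.36 to -0.12 and 0.041 to 0.177. Rara, with a change near 0, turned positive with DESeq2 (0.002297), RLE factors (0.002111), filterByExpr (0.002671), the replicate block (0.001599) and without Gm42418, crystallin and mitochondrial genes (0.0006045), and ran from -0.083 to 0.157 when each library was left out. In the same way Aldh1a3 ran from -0.52 to 0.12, Cyp26b1 from -0.17 to 0.014 and Crabp2 from -0.65 to 0.086. Rarb was at -0.020 after thinning; the cause was not tested. In the wider list the count of higher genes went from 0 to 1 with DESeq2 and with filterByExpr (Stra6), without Gm42418, crystallin and mitochondrial genes (Ttr, FDR 0.0341), and without Bbs8+/+ replicate 3 (Ttr, FDR 0.0132; 0 to 1 over the libraries left out). The count of lower genes stayed at 1. Over all genes, 152 were higher and 157 lower, and leaving out each library gave 114 to 172 and 105 to 150. Replicate numbers did not pair the libraries (correlations of same-numbered libraries 0.0194, 0.00661, -0.0251 and -0.0294 over 9042 genes), and the replicate block gave 134 higher and 129 lower genes. Depth limits Crabp1, Crabp2 and Aldh1a3 most, with 2 to 31 counts per library.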

Other observations

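For each of the 7 genes with a mean of at least 10 CPM, the genes whose log2 CPM followed it most closely over the 8 libraries were found among 9042 genes. The points share library and depth, and the values are a description. For Aldh1a2 these were Fam13c (Pearson r = 0.971) and G2e3 (0.962), of which G2e3 was lower in Bbs8-/- (log2 fold change -0.69, edgeR FDR 0.0306). Aldh1a1 was followed by Lpar6 (0.953) and U2af2 (0.928), and Dhrs3 by Kdelr2 (0.954) and Dbnl (0.939). For Cyp26b1 they were Mrps17 (0.975) and Zfp503 (0.955). Among receptors, Rara was followed by Cacna1c (0.966) and Fyb (0.925), Rarb by Hira (0.977) and Laptm5 (0.961), and Rarg by Mvk (0.931) and Hemk1 (0.927).

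The 31 genes with a DR5 repeat in a promoter window, a list made after the data were seen, had 16 members in the files and 5 that passed the filter on low counts: Blvrb, Cyp26a1, Gm14133, Ppbp and Rarb. Of these 5, 0 were past FDR 0.05 by edgeR, beside 2.24% of all genes, and 0 were called by DESeq2, beside 1.99%. An unadjusted edgeR p under 0.05 was found for 0 of the 5, beside 13%. With 5 genes, counts of 0 cannot be told from these background shares. Gm14133 and Ppbp had genotype means of only 0.523 to 2.09 CPM. The median log2 fold change of the 5 was 0.011.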
